A study of Mus musculus with 8 samples.

Results

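p53, the cell cycle inhibitors and the G1 cyclins were followed through 5 mouse pluripotent cell lines. The group holds 10 genes, taken by name from the deposited expression tables: *Trp53*, *Mdm2*, *Cdkn1a*, *Cdkn1b*, *Cdkn2a*, *Cdkn2b*, *Ccnd1*, *Ccnd2*, *Ccnd3* and *Ccne1*. They are 10 of 22878 gene entries, and all 10 were among the 13693 entries that reached an FPKM of 1 in at least 1 library and were tested. FPKM, the number of fragments for each kilobase of a transcript and each 1000000 that were mapped, is a level per length, so that levels can be set side by side between genes. All FPKM here were divided by 1 common constant, which leaves every ratio as deposited.

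RNA-seq was performed on the embryonic stem cell (ESC) line R1 and on 4 secondary induced pluripotent stem cell (iPSC) lines. The secondary iPSCs came from all-iPSC mice that carry doxycycline-inducible *Oct4*, *Sox2*, *c-Myc* and *Klf4*, and doxycycline had been withdrawn before colonies were picked. The mesoderm was the origin of 16-6, from hematopoietic progenitors, and of 32, from progenitors of adipocytes. Epidermal cells gave line S8, of ectodermal origin, and stomach lining cells gave line T2, of endodermal origin. R1, 16-6 and 32 each had 2 libraries, while S8 and T2 each had 1. Each iPSC origin stands on 1 line and R1 is the only ESC line, so that a difference between lines and a difference between origins cannot be told apart. According to the study's methods the lines were grown with LIF and serum on mitomycin C-treated mouse embryonic fibroblasts, a feeder layer. In such bulk RNA, fewer cells of a type and less RNA per cell cannot be told apart either.

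The 10 genes govern the passage from G1 into S phase. p53, the product of *Trp53*, is a transcription factor that is stabilized on DNA damage and switches on *Cdkn1a* and *Mdm2*, and the MDM2 protein in turn marks p53 for degradation. The inhibitors p21 (*Cdkn1a*) and p27 (*Cdkn1b*) bind cyclin-CDK complexes, while the INK4 proteins p16 (*Cdkn2a*) and p15 (*Cdkn2b*) bind CDK4 and CDK6 and keep the D cyclins from them. Mouse ESCs are known for a short G1 phase, for little dependence on the D cyclins and for high activity of CDK2 with cyclin E, and p53, p21 and the *Cdkn2a* locus are known as barriers to reprogramming.

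Promoters from RefSeq (GRCm38.p6, 250 bases before to 50 bases after a transcription start) were matched for 8 of the 10 genes, with 11 entries. The *Cdkn1a* promoter is shown because *Cdkn1a* was called against R1 in 3 lines. *Ccnd2* was also called in 3 lines, but was not among the matched genes. The upstream *Cdkn1a* entry (chr17:29090729-29091028, plus strand) holds a p53 response element, printed in capitals, which begins 51 bases before the start site.

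Cdkn1a, upstream start: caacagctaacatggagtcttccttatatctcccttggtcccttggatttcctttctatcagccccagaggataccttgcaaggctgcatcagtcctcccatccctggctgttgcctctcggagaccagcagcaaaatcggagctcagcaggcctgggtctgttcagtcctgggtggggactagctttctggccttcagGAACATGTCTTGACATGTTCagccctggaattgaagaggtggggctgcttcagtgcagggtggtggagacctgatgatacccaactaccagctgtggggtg

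This element was searched on both strands as 2 adjacent half-sites with no bases between them. At most 1 mismatch was allowed, and none in the core of a half-site. Under this strict search 18 of 32841 promoters held a match, or 0.0548%. The second *Cdkn1a* entry (chr17:29093519-29093818, plus strand) held none. The *Cdkn2a* locus is shown because it makes 2 unrelated proteins from separate starts on the minus strand, the ARF protein from the upstream start (chr4:89294570-89294869) and p16 from the downstream start (chr4:89282143-89282442). Capitals mark an E2F motif, which begins 99 bases before the upstream start.

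Cdkn2a, upstream start (ARF): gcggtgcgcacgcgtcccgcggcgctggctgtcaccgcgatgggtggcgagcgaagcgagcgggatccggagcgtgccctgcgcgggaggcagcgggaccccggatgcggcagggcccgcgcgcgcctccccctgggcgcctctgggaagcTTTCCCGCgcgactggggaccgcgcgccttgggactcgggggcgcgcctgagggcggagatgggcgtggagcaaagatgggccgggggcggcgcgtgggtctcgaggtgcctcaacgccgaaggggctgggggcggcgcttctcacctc

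Cdkn2a, downstream start (p16): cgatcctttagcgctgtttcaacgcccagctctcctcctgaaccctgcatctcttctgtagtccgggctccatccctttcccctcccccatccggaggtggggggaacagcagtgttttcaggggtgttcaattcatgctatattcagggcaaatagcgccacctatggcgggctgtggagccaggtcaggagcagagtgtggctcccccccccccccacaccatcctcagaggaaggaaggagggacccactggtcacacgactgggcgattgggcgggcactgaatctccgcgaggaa

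The motifs searched for E2F were TTTCCCGC, TTTCGCGC, TTTGCCGC and TTTGGCGC on both strands, and 744 of 32841 promoters held at least 1 of them (2.27%). The downstream promoter held no such motif. The expression tables give 1 value for both starts, so that ARF and p16 transcripts cannot be told apart in the levels. Among all 11 promoters the *Ccne1* promoter was among the richest in G and C (76.0%, with 4 GC boxes GGGCGG counted on both strands), against a median of 52.7% over all promoters. A GC box was present in 35.7% of all promoters. A match is a description of these letters and not of a bound site.

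Every value of the 10 genes in the 8 libraries carried a successful estimate. The fragments behind the values, inferred from the deposited confidence limits, summed, in units of 1000000, to 15.5 to 16.7 per library. *Cdkn2a* rested on only 54.9 to 102.7 fragments and *Cdkn2b* on 19.0 to 220.0, while the other 8 genes had 354.0 or more in each library. The limits cover counting error and not the spread between cultures. limma was fitted to log2(FPKM + 1) over all tested genes to compare the lines, and a gene was called where the adjusted p was below 0.05 and the change was at least 2-fold. The spread came from the pairs of R1, 16-6 and 32 alone, with 3 residual degrees of freedom, so that S8 and T2 were assumed to vary like the others. The p-values measure the spread between libraries, which may be technical, and the comparisons against R1 share the R1 libraries.

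The identity of the lines was checked on markers. The 10 markers of pluripotent cells were expressed in every library, with a summed FPKM of 4179.1 to 4545.6 in R1, 2692.3 to 2753.1 in 16-6, 4453.9 to 5255.3 in 32, 5421.0 in S8 and 3592.7 in T2, and none was at 0. Of these, 2 were called lower in 16-6, 1 in 32, 4 in S8 and 3 in T2 against R1, and 1 was called higher in S8. Of all tested genes 3.53%, 8.23%, 9.74% and 6.54% were called lower in these lines, and 6.93% were called higher in S8. Markers of primitive endoderm, a lineage that arises in such cultures, summed to 4.8 to 27.2. Among them *Gata4*, *Gata6*, *Sox17*, *Sox7* and *Foxa2* stood at an FPKM of only 0.09 to 1.52. *Dab2* reached 13.2, and *Pdgfra*, which is also counted among the fibroblast markers, reached 9.92. Markers of fibroblasts, the cell type of the feeder layer, were also present in every library. Of 18 such markers none was at 0 in any library, and their summed FPKM was 1381.0 and 1503.4 in R1, 3850.9 and 3883.7 in 16-6, 219.8 and 222.3 in 32, 721.5 in S8 and 1018.1 in T2. Against R1, 10 were called higher and 2 lower in 16-6, 0 and 17 in 32, 1 and 10 in S8 and 1 and 9 in T2. Between 16-6 and 32, 18 of 18 were higher in 16-6, beside 9.22% of all tested genes. The shares of all tested genes called lower against R1 are given above, and those called higher were 3.58%, 1.54%, 6.93% and 3.95%. The sum was highest in 16-6 and lowest in 32, as were *Mdm2*, *Cdkn2b*, *Ccnd1* and *Ccnd2* among the 10 genes, and *Cdkn1a* was likewise highest in 16-6. The part of fibroblast RNA in the levels of the 10 genes was not tested.

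**Figure D1:**
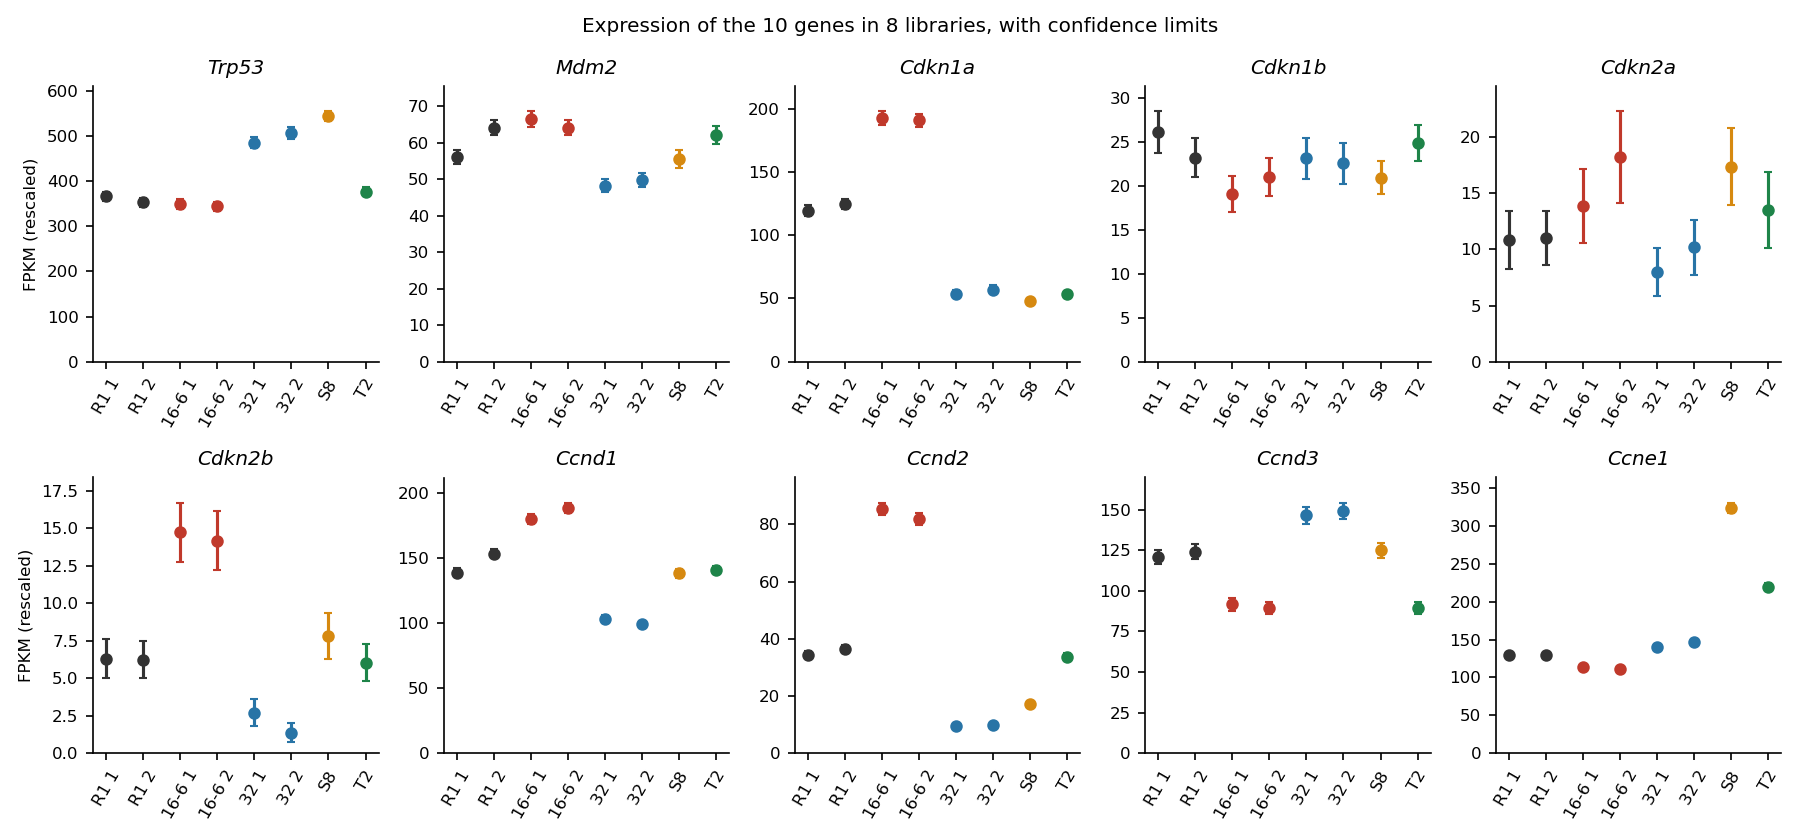
Expression of the 10 genes in the 8 libraries. Each point is the rescaled FPKM (vertical axis from 0) of 1 library with its confidence limits, colored by line; Cdkn1a, Cdkn2b and Ccnd2 stand highest in both libraries of 16-6, and Ccne1 stands highest in S8 and next in T2.

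*Trp53* (mm9 chr11:69393861-69405375) was highly expressed in every line, and the mean of its level stood at percentile 98.7 of all gene entries. Its FPKM was 367 and 353 in R1, 349 and 344 in 16-6, 485 and 506 in 32, 544 in S8 and 377 in T2. S8 was highest, followed by 32, and the confidence limits of T2, R1 and 16-6 overlapped. No difference reached 2-fold. The level was 1.51 times that of R1 in S8 (log2 difference 0.59 ± 0.05 SE, limma adjusted p = 0.00057) and 1.38 times in 32 (0.46 ± 0.04, adjusted p = 0.000856), whereas 16-6 and T2 lay within 0.07 of R1 on the log2 scale. FPKM per inferred fragment of *Trp53* was 1.19 and 1.26 times the R1 mean in the libraries of 32. Computed from fragments per 1000000, an alternative chosen after seeing the data, the difference of 32 from R1 was 0.15 (limma adjusted p = 0.154) and that of S8 was 0.66 (adjusted p = 0.00291), and under quantile normalization they were 0.17 and 0.25.

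*Mdm2* (chr10:117125961-117147772), the ubiquitin ligase that acts on p53, showed the smallest spread of the genes apart from *Cdkn1b*. Its FPKM was 56.1 and 64.0 in R1, 66.5 and 64.0 in 16-6, 48.2 and 49.7 in 32, 55.4 in S8 and 62.2 in T2. The highest line mean was 1.33 times the lowest, and all neighbours in the order overlapped except S8 and 32. The difference of 32 from R1 was -0.29 ± 0.07 in log2 (limma adjusted p = 0.0185), less than 2-fold.

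The value of *Mdm2* in S8 and T2 depended on how fragments were weighted. FPKM per inferred fragment was 1.56 times the R1 mean in S8 and 1.49 times in T2, which put S8 at percentile 97.1 of 8822 genes with at least 100 fragments in every library. The fragments themselves numbered 3439.0 and 3776.0 in R1, 2131.9 in S8 and 2507.9 in T2. Computed from fragments per 1000000, the log2 difference from R1 was -0.80 in S8 (limma adjusted p = 0.000231) and -0.59 in T2 (adjusted p = 0.000863), in place of -0.11 and 0.05 from FPKM.

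*Cdkn1a* (chr17:29227931-29237667) encodes p21, the inhibitor that p53 induces. Its FPKM was 119 and 125 in R1, 192 and 191 in 16-6, 53.7 and 57.1 in 32, 47.8 in S8 and 53.3 in T2. The summed fibroblast markers were 3850.9 to 3883.7 in 16-6 and 219.8 to 1018.1 in 32, S8 and T2. The libraries formed 3 levels that did not overlap, with 16-6 highest, R1 between and the other 3 lines at 47.8 to 57.1. *Cdkn1a* fell 2.20-fold against R1 in 32 (log2 difference -1.13 ± 0.05, limma adjusted p = 7.56e-05), 2.55-fold in S8 (-1.33 ± 0.06, adjusted p = 0.0001) and 2.29-fold in T2 (-1.18 ± 0.06, adjusted p = 0.000226). The level in 16-6 was 1.57 times that in R1 (log2 difference 0.65 ± 0.05, adjusted p = 0.000449), short of 2-fold, and 3.46 times that in 32 (1.77 ± 0.05, adjusted p = 1.29e-05). All calls on *Cdkn1a* were kept under every alternative that retained the fold minimum.

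By FPKM, *Cdkn1a* was not ordered like *Trp53* or like *Mdm2*, the other classical p53 target of the group. The ratio of *Cdkn1a* to *Trp53* FPKM was 0.325 and 0.353 in R1, 0.551 and 0.554 in 16-6, 0.111 and 0.113 in 32, 0.088 in S8 and 0.141 in T2. The ratio of *Cdkn1a* to *Mdm2* was 1.95 to 2.13 in R1, 2.89 to 2.98 in 16-6, 1.11 to 1.15 in 32 and 0.86 in both S8 and T2. FPKM per inferred fragment of *Mdm2* was 1.56 times the R1 mean in S8 and 1.49 times in T2. The ratios in S8 and T2, and their place below 32, therefore depend on this weight. In S8 *Trp53* was above R1 and *Cdkn1a* below it by both FPKM and fragments, whereas in 32 the *Trp53* difference did not pass the p threshold from fragments. Computed from fragments per 1000000, *Mdm2* differed from R1 by 0.08, -0.32, -0.80 and -0.59 in log2 in 16-6, 32, S8 and T2. *Cdkn1a* differed by 0.62, -1.19, -1.24 and -1.10 there, so that the signs of *Cdkn1a* and *Mdm2* were the same in each line.

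*Cdkn1b* (chr6:134870419-134875543), which encodes p27, was the most even of the 10 genes. Its FPKM was 26.1 and 23.2 in R1, 19.05 and 21.0 in 16-6, 23.1 and 22.5 in 32, 20.9 in S8 and 24.9 in T2. The highest line mean was 1.24 times the lowest, and the confidence limits of all neighbours overlapped. The largest difference from R1 was -0.29 ± 0.08 in 16-6 (limma adjusted p = 0.0268). *Cdkn1a* exceeded *Cdkn1b* by 9.08 to 10.11 times in 16-6, by 4.57 to 5.37 times in R1 and by 2.14 to 2.53 times in the other 3 lines.

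*Cdkn2a* (chr4:88920377-88940523), the locus of ARF and p16, was expressed at a low level. Its FPKM was 10.8 and 11.0 in R1, 13.9 and 18.2 in 16-6, 8.01 and 10.2 in 32, 17.4 in S8 and 13.5 in T2. The line means differed by up to 1.91 times, but the confidence limits of all neighbours in the order overlapped. The differences of S8 (log2 difference 0.63 ± 0.19, limma adjusted p = 0.0358) and of 16-6 (0.51 ± 0.16, adjusted p = 0.0435) from R1 passed the p threshold and not the fold minimum. By fragments the difference of 16-6 was -0.03 and that of S8 was 0.31 (adjusted p = 0.852 and 0.129 in limma), and no order of the lines can be read from this gene at this depth.

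*Cdkn2b* (chr4:88952198-88956941), the p15 gene beside it, separated the mesodermal lines from each other. Its FPKM was 6.31 and 6.23 in R1, 14.7 and 14.2 in 16-6, 2.70 and 1.36 in 32, 7.82 in S8 and 6.02 in T2. Both libraries of 16-6 lay above and both libraries of 32 lay below all others, while S8, R1 and T2 overlapped. *Cdkn2b* rose 2.30-fold in 16-6 against R1 (log2 difference 1.09 ± 0.21, limma adjusted p = 0.00975) and fell 3.09-fold in 32 (-1.30 ± 0.21, adjusted p = 0.00469). The lines 16-6 and 32, which also differed most in fibroblast markers, differed 7.11-fold (2.39 ± 0.21, adjusted p = 0.000603). The call in 16-6 was lost when either R1 library or the first 16-6 library was left out (adjusted p = 0.0524, 0.0514 and 0.0531), while the log2 difference stayed above 1. The call in 32 fell short of 2-fold without the second 32 library (-0.97), which rested on 19.0 fragments.

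The D cyclins carry CDK4 and CDK6 activity in G1, and their sum differed less between the lines than its makeup did. The summed FPKM of *Ccnd1*, *Ccnd2* and *Ccnd3* was 294.0 and 314.0 in R1, 357.6 and 360.0 in 16-6, 259.4 and 257.9 in 32, 280.2 in S8 and 264.1 in T2. The share of *Ccnd2* in this sum was 11.7% ± 0.06 (SD, n = 2) in R1, 23.3% ± 0.80 in 16-6, 3.74% ± 0.03 in 32, 6.11% in S8 and 12.8% in T2. *Ccnd3* took 57.2% ± 0.98 in 32 and 25.3% ± 0.60 in 16-6, where *Ccnd1* took 39.1% and 51.4%. *Ccnd3* was therefore the leading D cyclin in 32, and *Ccnd1* in the other 4 lines.

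**Figure D2:**
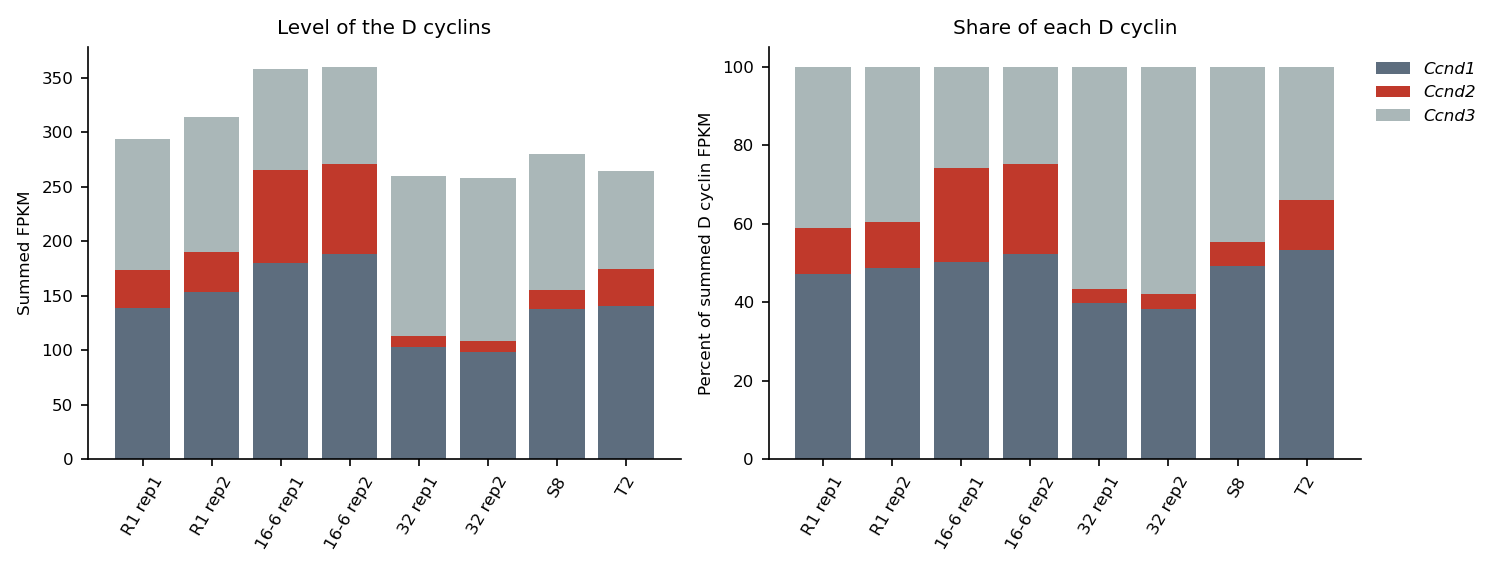
D cyclins by library. The left bars stack the FPKM of Ccnd1, Ccnd2 and Ccnd3 from 0, and the right bars give each gene's percent of that sum; Ccnd2 takes 22.8% to 23.9% in the libraries of 16-6 and 3.72% to 3.76% in those of 32.

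*Ccnd2* (chr6:127075727-127101066) differed most of the 10 genes, with a highest line mean 8.65 times the lowest. Its FPKM was 34.5 and 36.5 in R1, 85.5 and 82.0 in 16-6, 9.66 and 9.70 in 32, 17.1 in S8 and 33.7 in T2. Confidence limits overlapped for R1 and T2 and for no other neighbours, and the summed fibroblast markers were in the order 16-6, R1, T2, S8 and 32 as well. *Ccnd2* rose 2.36-fold in 16-6 against R1 (log2 difference 1.22 ± 0.05, limma adjusted p = 0.000122), fell 3.67-fold in 32 (-1.77 ± 0.05, adjusted p = 2.19e-05) and fell 2.07-fold in S8 (-1.01 ± 0.06, adjusted p = 0.000166). In T2 the difference was -0.07 ± 0.06. Between 16-6 and 32 it was 2.99 ± 0.05 (adjusted p = 3.7e-06), and between S8 and T2 it was -0.94 ± 0.07 (adjusted p = 0.00234), short of 2-fold. The call in S8 sat at the fold minimum, and without the second R1 library its value was -0.97.

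*Ccnd1* (chr7:152115836-152125830) was ordered in the same way at the extremes. Its FPKM was 139 and 153 in R1, 180.2 and 189 in 16-6, 103 and 98.9 in 32, 138 in S8 and 141 in T2. R1, T2 and S8 overlapped, with 16-6 above and 32 below them. The differences from R1 were 0.34 ± 0.06 in 16-6 (limma adjusted p = 0.00782) and -0.53 ± 0.06 in 32 (adjusted p = 0.00154), and 16-6 exceeded 32 by 1.83 times, all short of 2-fold.

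*Ccnd3* (chr17:47642000-47736637) ran the other way in these lines. Its FPKM was 121 and 124 in R1, 91.9 and 89.5 in 16-6, 147 and 149 in 32, 125 in S8 and 89.8 in T2. The libraries of 32 were highest, S8 and R1 overlapped, and 16-6 and T2 overlapped at the low end. The log2 difference from R1 was -0.43 ± 0.04 in 16-6 (limma adjusted p = 0.000711), -0.44 ± 0.04 in T2 (adjusted p = 0.0012) and 0.27 ± 0.04 in 32 (adjusted p = 0.00238), none of them 2-fold. Under quantile normalization the value in 32 was 0.06 (adjusted p = 0.204).

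*Ccne1* (chr7:38883003-38892509) encodes cyclin E1, the partner of CDK2 at the entry into S phase. Its FPKM was 129 and 130.0 in R1, 113 and 111 in 16-6, 141 and 146 in 32, 324 in S8 and 219 in T2. No neighbours in this order of 5 lines overlapped, and the single libraries of S8 and T2 stood above all 6 others. *Ccne1* rose 2.50-fold in S8 against R1 (log2 difference 1.32 ± 0.05, limma adjusted p = 7.44e-05). In T2 the difference was 0.76 ± 0.05 (adjusted p = 0.00036) and in 16-6 it was -0.21 ± 0.04 (adjusted p = 0.00709). *Ccne1* FPKM came to 1.16 times the D cyclin sum in S8 and 0.83 times in T2, against 0.31 to 0.57 times in the other lines. The ratios in S8 and T2 depend on the fragment weights given below.

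The size of the *Ccne1* difference depended on the weight of a fragment. The study lists more reads for S8 and T2 than for the other lines, and a lower percentage of them mapped uniquely. Inferred fragment totals, in units of 1000000, showed no such excess (15.5 and 16.4 in R1, 16.5 in S8, 16.7 in T2). The study's methods do not say whether S8 and T2 were sequenced or processed separately. Such a difference cannot be told apart from a difference between lines. For *Ccne1*, FPKM per inferred fragment was 1.59 times the R1 mean in S8 and 1.45 times in T2. Its fragments numbered 5646.8 and 5522.2 in R1, 8779.0 in S8 and 6521.9 in T2. Computed from fragments per 1000000, the log2 difference from R1 was 0.60 in S8 (limma adjusted p = 0.00124) and 0.16 in T2. Both kept their direction and were short of 2-fold, and that of T2 did not pass the p threshold. Over the 8822 genes with at least 100 fragments in every library, this weight spanned 0.69 to 1.46 in S8 and 0.69 to 1.31 in T2 (percentiles 5 to 95), against 0.89 to 1.17 in the first library of 16-6. Across 8704 genes of a library, a description, the Spearman correlation of this weight with the GC content of transcripts was 0.59 in S8, 0.49 in T2, 0.57 in both libraries of 16-6 and 0.15 to 0.20 in 32. It was -0.42 and 0.42 in the R1 libraries, whose mean is the reference. Apart from *Ccne1* and *Mdm2*, the other 8 genes had weights of 0.78 to 1.19 in S8 and T2, except *Cdkn2a* in T2 at 1.5. The longest coding transcripts of *Mdm2* and *Ccne1* held 46.2% and 52.7% GC, against a median of 50.1%. *Ccnd3*, the highest of the 10 genes at 58.4%, had weights of 1.03 in S8 and 0.93 in T2. *Cdkn1b*, the lowest at 43.1%, had 0.80 and 0.78. The cause of the weights was not tested.

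**Figure D3:**
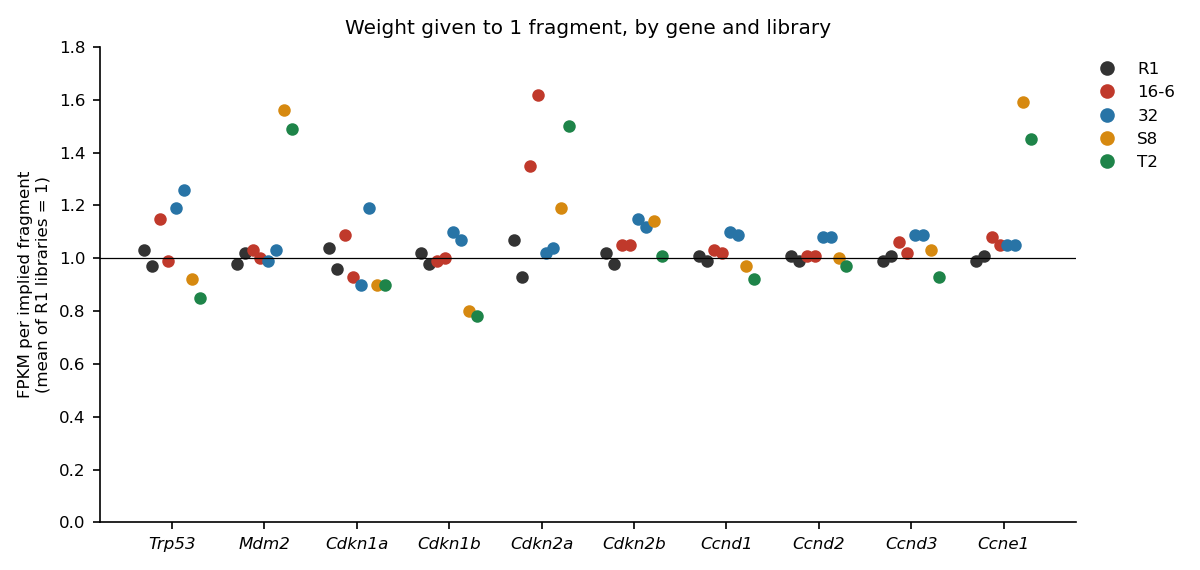
Rescaled FPKM given per inferred fragment, relative to the mean of the R1 libraries (vertical axis, R1 mean at 1), for each gene and library. Mdm2 and Ccne1 stand at 1.45 to 1.59 in S8 and T2, and Ccnd2 stays between 0.97 and 1.08 in all libraries.

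Counted over the 10 genes, 2 were called higher and 0 lower in 16-6 against R1, where 3.58% and 3.53% of all tested genes were called higher and lower (7.11% in all). In 32 against R1, 0 were higher and 3 lower, beside 1.54% and 8.23% of all genes (9.77% in all). In S8 against R1, 1 was higher and 2 lower, beside 6.93% and 9.74% (16.7% in all), and in T2 against R1, 0 were higher and 1 lower, beside 3.95% and 6.54% (10.5% in all). Between 16-6 and 32, 3 genes were called, all higher in 16-6, beside 9.22% of all genes higher and 1.09% lower (10.3% in all). Between S8 and T2 none of the 10 was called by limma, although 4 had an adjusted p below 0.05, and 0.92% and 1.83% of all genes were called higher and lower (2.75% in all).

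The adjusted p alone separated little. It was below 0.05 for 8 of the 10 genes in 16-6, 8 in 32, 5 in S8 and 3 in T2 against R1, and for 9 between 16-6 and 32, where 55.6%, 61.5%, 66.7%, 57.9% and 60.4% of all tested genes passed. For S8 against T2 the share of all genes was 34.5%. The median absolute log2 difference of the 10 genes was 0.73 between 16-6 and 32, where that of all genes was 0.32, and 0.07 between T2 and R1, where that of all genes was 0.36. In the other comparisons both medians lay between 0.27 and 0.47. For none of the 10 genes did all 6 iPSC libraries lie on 1 side of both R1 libraries, a pattern found for 31.1% of all tested genes. Without the second R1 library *Cdkn1b*, named here after its values were seen, took that pattern.

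**Figure D4:**
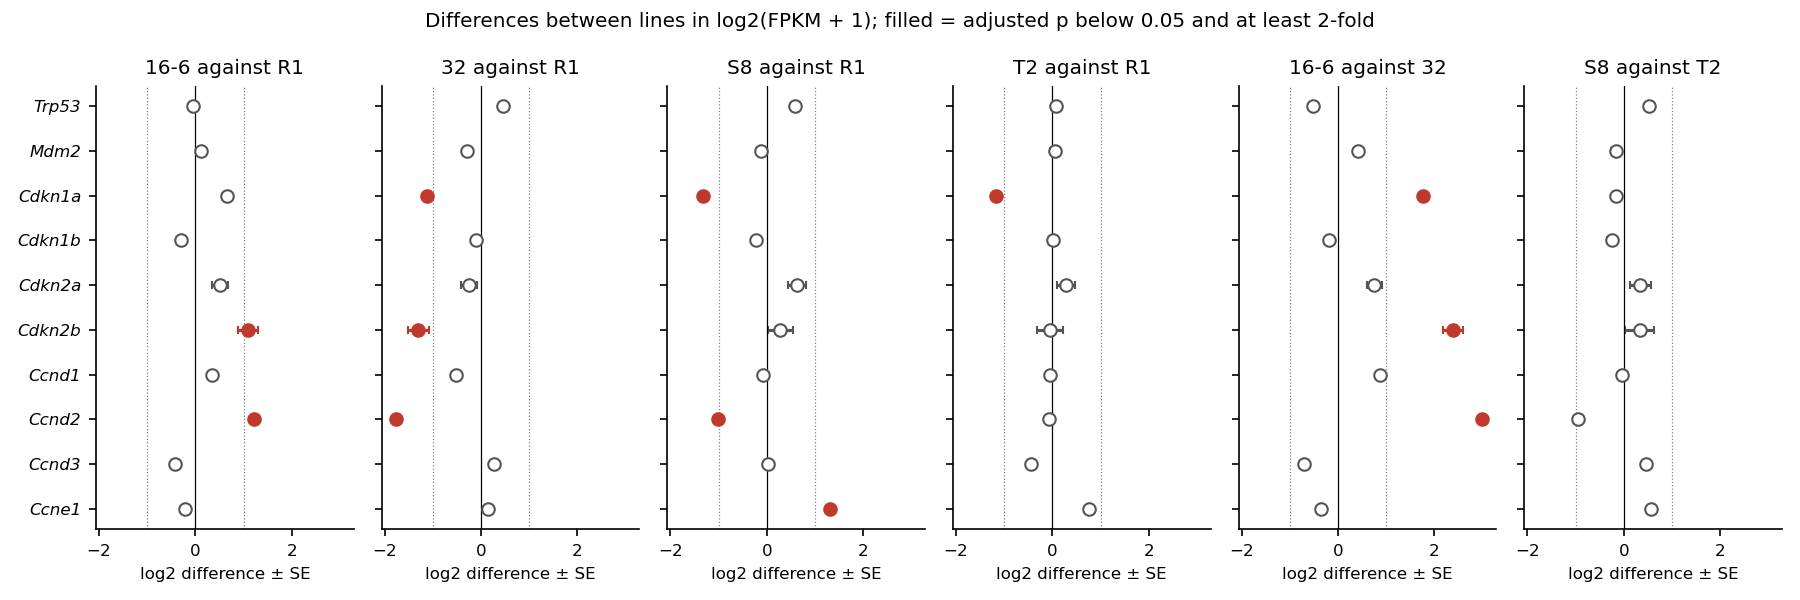
Log2 difference of log2(FPKM + 1) between lines (horizontal axis, with SE) for the 10 genes in 6 comparisons. Filled points are called (limma adjusted p below 0.05 and at least 2-fold) and dotted lines mark 2-fold; 3 genes are filled in 16-6 against 32, and none is filled in S8 against T2.

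Other genes of the pathway were counted from lists that had been drawn up with earlier results of these data known. Of 28 further p53 targets, 1 was called higher and 10 lower in S8 against R1, 1 higher and 3 lower in T2, 1 higher and 2 lower in 32, and 1 higher and 0 lower in 16-6. Of all tested genes 9.74% were called lower in S8, 6.54% in T2, 8.23% in 32 and 3.53% in 16-6. In the same order 6.93%, 3.95%, 1.54% and 3.58% were called higher. The median log2 difference of the list was -0.48, -0.31, -0.12 and -0.24 in these lines, while the median of all genes lay within 0.033 of 0. Computed from fragments per 1000000, 2 of the 28 were called higher and 7 lower in S8, where 2467 of 13693 tested genes were called in either direction. *Pmaip1*, the gene of the apoptosis protein NOXA, had an FPKM of 17.4 and 18.5 in R1, 58.1 and 55.8 in 16-6, 53.4 and 50.6 in 32, 35.8 in S8 and 65.5 in T2. It rose in 16-6, 32 and T2 against R1 (log2 difference 1.61, 1.48 and 1.81, limma adjusted p = 0.000101, 4.75e-05 and 0.000116). In S8 the difference was 0.96, short of 2-fold, and *Pmaip1* was called there from fragments. *Fas*, a death receptor gene, and *Dram1*, a gene of autophagy, fell in 32, S8 and T2. Their log2 differences from R1 were -2.67, -2.43 and -2.27 for *Dram1* and -2.17, -1.84 and -1.8 for *Fas*. Both genes were low, with an FPKM of 5.51 to 7.63 in R1 and of 0.22 to 0.88, below 1, in 32, S8 and T2. Targets of p53 therefore did not move in 1 direction. Within 32, S8 and T2 *Pmaip1* stood above R1 where *Cdkn1a* stood below it, short of 2-fold for *Pmaip1* in S8. Under the strict search described above, the p53 response element was found in the promoters of 0 of the 20 listed targets that had an entry. Since only 0.0548% of all promoters held a match, this count cannot show whether these targets lack p53 sites.

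Among 13 tested regulators and relatives of p53, 0 were called by limma in 16-6 and in 32 against R1, although 12 and 9 had an unadjusted p below 0.05. After adjustment 55.6% and 61.5% of all tested genes still had a limma p below 0.05 there. The unadjusted share of all genes is at least that large. In S8 2 were lower and in T2 1 was lower, beside 9.74% and 6.54% of all tested genes. *Mdm4*, the relative of *Mdm2* that binds and restrains p53, had an FPKM of 62.8 and 63.4 in R1, 36.8 and 39.5 in 16-6, 65.5 and 69.9 in 32, 10.4 in S8 and 28.9 in T2. It fell against R1 in S8 (log2 difference -2.49, limma adjusted p = 4.93e-05) and in T2 (-1.1, adjusted p = 0.000361). *Atr*, a kinase of the DNA damage response, fell by 1.20 in S8 (adjusted p = 0.000134). From fragments, *Mdm4* was called in S8 and not in T2, and *Atr* was not called. *Twist1*, a mesenchymal transcription factor, was higher in 16-6 than in 32 by 1.30 (adjusted p = 0.000604).

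Of 4 tested inhibitors and pocket proteins outside the group, 1 rose and 2 fell in S8 against R1, and 1 rose and 1 fell in T2. Of all tested genes 16.7% were called in S8 and 10.5% in T2. *Cdkn1c*, which encodes p57, had an FPKM of 16.2 and 15.2 in R1, 79.9 in S8 and 43.3 in T2, and rose by 2.28 (limma adjusted p = 6.63e-05) and 1.41 (adjusted p = 0.00024) in log2. p57 belongs to the same family as p21, and in S8 and T2 *Cdkn1c* stood high where *Cdkn1a* stood low. In 32, where *Cdkn1a* was low as well, *Cdkn1c* was at 15.84 and 14.65 (log2 difference from R1 -0.04). In 16-6, where *Cdkn1a* was highest, *Cdkn1c* was at 20.06 and 19.44, so the 2 genes were not opposed in every line. *Rb1*, the retinoblastoma gene, fell by 1.17 in S8, and its relative *Rbl2* fell in S8 and T2 (log2 differences -1.25 and -1.22).

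The kinases, cyclins and E2F factors of G1 and S phase (18 genes) had 0 limma calls in 16-6, 32 and T2 against R1, where 10, 16 and 11 had an unadjusted p below 0.05, and had 2 higher and 1 lower in S8. A limma adjusted p below 0.05 was held by 55.6%, 61.5% and 57.9% of all tested genes in 16-6, 32 and T2. Of all tested genes 16.7% were called in S8. *Cdk4* rose by 1.23 in log2 in S8 (FPKM 352 and 379 in R1 and 857 in S8, limma adjusted p = 0.000155), *E2f4* rose by 1.20 and *Cdk6* fell by 1.09. Of 16 E2F target genes of DNA replication, 1 was higher in S8 and in T2, namely *Cdc6*, a licensing factor of replication origins (log2 difference 1.27 and 1.18), and 0 were called in 16-6 and 32. In 16-6 all 16 of them had an unadjusted p below 0.05 in limma, with a median log2 difference of -0.47, and in 32 it was 10 of them with a median of 0.09. *Gins2*, from the same list, was not called in any comparison. Of 12 genes of G2 and mitosis, *Plk1* and *Cdc20* rose (1.16 and 1.23) and *Mki67* fell (-1.17) in S8, and 0 were called in 16-6, 32 and T2, where 11, 7 and 9 had an unadjusted p below 0.05. From fragments, *E2f4*, *Plk1* and *Cdc20* were not called in S8, and *Cdk4*, *Cdk6*, *Cdc6* and *Mki67* were. The G1 and S phase list gained calls from fragments, all named after their values were seen. They were *E2f1*, *E2f2* and *E2f6* in 16-6 (1 higher and 2 lower), *E2f2* in 32 (lower), *Cdk2* in T2 (higher) and *E2f6* in S8. In 16-6 against 32, where *Cdkn1a*, *Cdkn2b* and *Ccnd2* were called, 0 genes of these 3 lists were called, and their medians were -0.37, -0.58 and -0.32. An unadjusted p below 0.05 was held by 15 of 18, 15 of 16 and 10 of 12, beside 60.4% of all tested genes with a limma adjusted p below 0.05.

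The fibroblast markers did not all follow 1 order, and neither did the 10 genes beside them. *Dcn*, which encodes the matrix protein decorin, had an FPKM of 217 and 204 in R1, 32.9 and 33.3 in 16-6, 0.60 and 0.89 in 32, 11.1 in S8 and 11.0 in T2, and *Lum* (lumican) was ordered likewise, so that both were lower in 16-6 than in R1. *Thbs1*, by contrast, was at 109 and 115 in R1, 575 and 585 in 16-6 and 35.6 and 36.6 in 32. *Cdkn1a* was at about the same level in T2 and in 32 (53.3 against 53.7 and 57.1), where the summed markers were 1018.1 against 219.8 and 222.3.

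**Figure D5:**
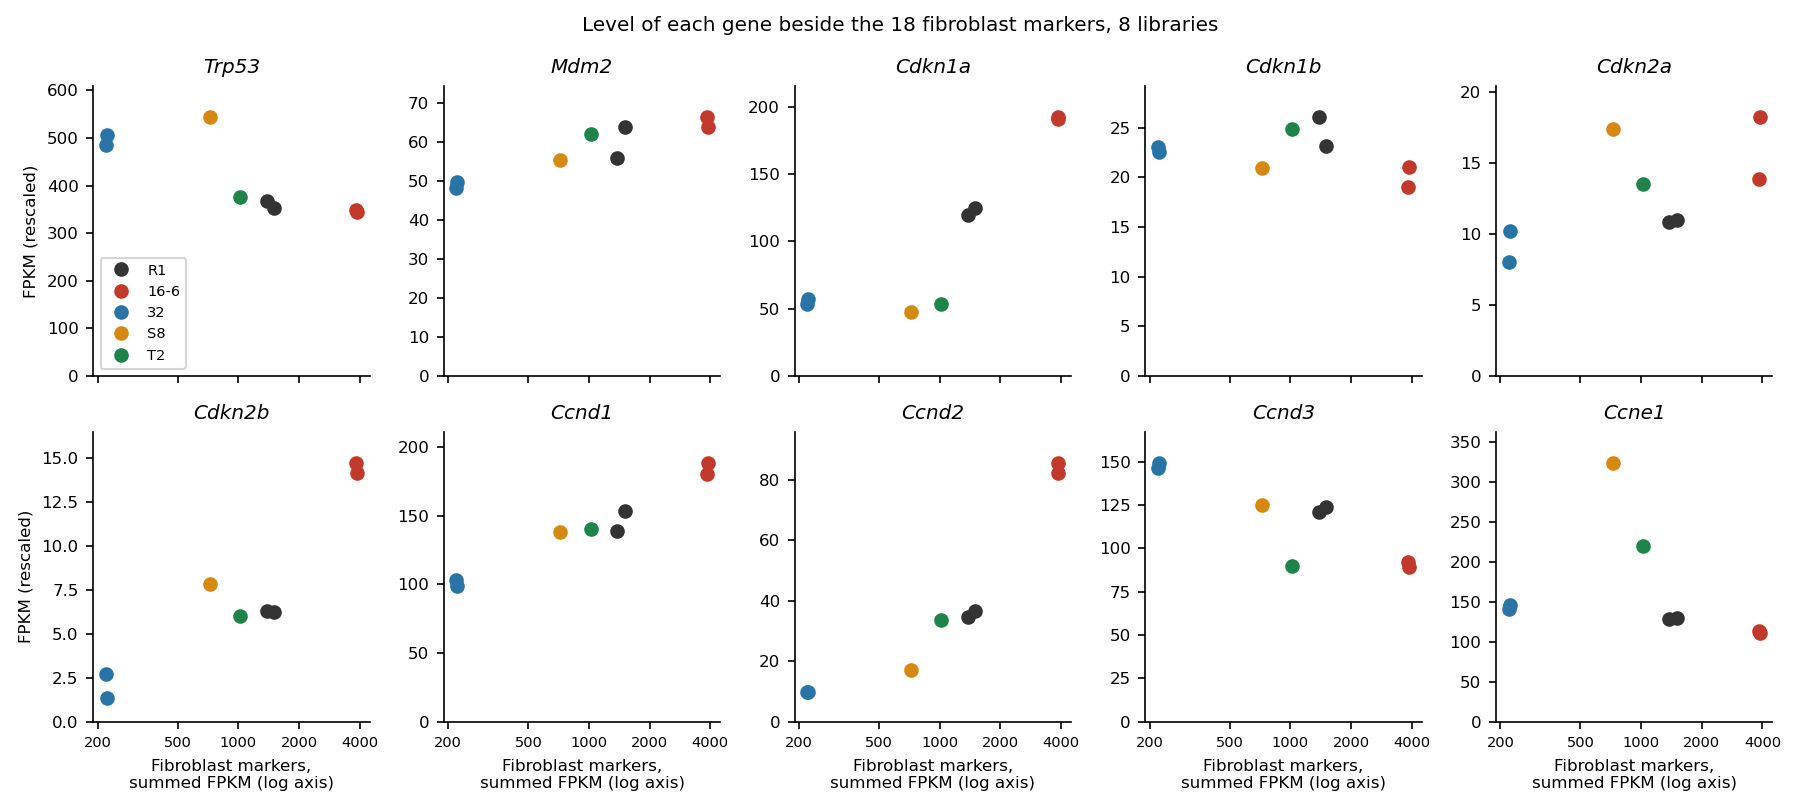
Rescaled FPKM of each gene (vertical axis) against the summed FPKM of 18 fibroblast markers (horizontal axis, log scale) in the 8 libraries. The summed markers run from 219.8 in 32 to 3883.7 in 16-6; Ccnd2 runs from 9.66 to 85.5 between the same lines, while Cdkn1b stays between 19.05 and 26.1.

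For the 4 genes whose line means spanned at least 2-fold, the genes with the most similar profile were listed by the root mean square difference of centred log2(FPKM + 1) over the 8 libraries, among 9257 genes. *Cdkn1a* was closest to *Hbegf*, a growth factor gene, at 0.048, whose FPKM was 34.7 and 36.2 in R1, 52.3 and 50.2 in 16-6, 14.8 and 15.6 in 32, 12.6 in S8 and 14.2 in T2. *Kdelr3* (0.117) and *Ctsb* (0.122) came next. *Ccnd2* was closest to the collagen gene *Col8a1* (0.13), *Parva* (0.17) and *App* (0.177), and *Cdkn2b* to the chemokine gene *Cxcl12* (0.178), *Chst14* (0.20) and *Sepn1* (0.214). *Ccne1* was closest to *Tcfap4* (0.062), *Exosc5* (0.064) and *Daxx* (0.068). The profiles rest on 5 lines and share the libraries, so that the distances are descriptions.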

How the data were processed

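RNA-seq libraries of R1 (2), 16-6 (2), 32 (2), S8 (1) and T2 (1) were analysed. Per the submitters' processing notes the authors aligned reads to mm9 with TopHat2 2.0.4 and Bowtie, and Cufflinks 2.0.0 gave the deposited FPKM with confidence limits per gene. The study's methods name a later release of Cufflinks, call the unit RPKM and kept unique alignments. The 22878 entries of the 8 libraries were joined by gene, locus and start site, and FPKM were divided by 12725.7, which sets the median library total to 1000000. The reason for the scale of the deposited values is not given in the sources used here. No counts were used as depth: the fragments behind a value were inferred by dividing 2 × FPKM by the distance from FPKM to its upper limit and squaring the quotient, and 81.3% to 82.6% of values under 50 fragments came out whole within 0.01.

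The 13693 entries whose FPKM reached 1 in any library were fitted as log2(FPKM + 1) with limma 3.58.1 (lmFit, eBayes with a trend) in R 4.3.3 over all 8 libraries and 5 lines. Fold changes are on that scale or, where given as "-fold", between mean FPKM. Calls needed a Benjamini-Hochberg adjusted p below 0.05 and a log2 difference of at least 1. The pseudocount understates changes of low genes. Tables were handled with Python 3.11.15 and pandas 2.3.3. Alternatives were pseudocount 0.1, other filters, quantile normalization, no trend, no fold minimum, each replicate omitted in turn, and the replicate number as a block. Added after seeing the data were a fit to inferred fragments, a fit without S8 and T2, and averaged 16-6 libraries.

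The genes, lists and markers were chosen with earlier results of these data known. All 10 genes are named, as are the 3 genes of each list called in the most comparisons (1 of these is not reported here), and the 3 most similar profiles for genes spanning at least 1 in log2(FPKM + 1). For these the mean FPKM had to be at least 5, and gene length was taken as the span of the locus since the length column is empty. *Cdkn2a* sums 2 starts, and genes that share reads with copies were not separated. Locus starts were read as counted from 0 and are given from 1.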

Additional observations from a re-analysis of the deposited data

Results flagged for a closer look

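*Cdkn2b* and *Ccnd2* drew attention because they differed from R1 in opposite directions in the 2 lines of mesodermal origin. *Cdkn2b*, the p15 gene, was higher than R1 in both libraries of 16-6 and lower in both libraries of 32, and the difference between these lines was 2.39 in log2(FPKM + 1). *Ccnd2*, a D cyclin gene, was likewise higher in 16-6 and lower in 32, with a difference of 2.99. Each of these values equals the gene's log2 difference from R1 in 16-6 minus that in 32. The genes were picked by those differences, so that both values are given as descriptions. The summed FPKM of 18 fibroblast markers stood at 3850.9 and 3883.7 in 16-6 and at 219.8 and 222.3 in 32, and their part in these differences was not tested. No group held enough libraries for a search for single outlying libraries.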

How the results depend on the processing

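Of the 10 genes, 2 were called in 16-6, 3 in 32, 3 in S8 and 1 in T2 against R1, 3 between 16-6 and 32 and 0 between S8 and T2. Without a fold minimum the counts were 8, 8, 5, 3, 9 and 4. When 1 library was left out, the count for 16-6 against R1 ranged from 1 to 2, with *Cdkn2b* lost at an adjusted p of 0.0514 to 0.0531 (limma), and with the 16-6 libraries averaged it was 1 (adjusted p = 0.0536). Without the second R1 library, 1 gene in place of 0 had all iPSC libraries on 1 side of R1. Leaving out any other library of R1, 16-6 or 32 gave 0, and the single libraries of S8 and T2 were not left out. From inferred fragments *Ccne1* in S8 was 0.60 and S8 had 2 calls, and under quantile normalization *Ccne1* in S8 was 0.97, *Cdkn2b* in 32 was -0.94 and *Ccnd1* between 16-6 and 32 was 1.01. The causes of these shifts were not tested.

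The sign reversed for 14 values. Under quantile normalization these were, against R1, *Trp53* (0.00), *Mdm2* (-0.01), *Cdkn1b* (-0.01) and *Cdkn2b* (0.04) in T2, *Ccnd3* in S8 (-0.22, limma adjusted p = 0.00771) and *Ccne1* in 32 (-0.07). From fragments they were *Mdm2* (-0.59) and *Cdkn2a* (-0.28) in T2, *Cdkn1b* (0.03) and *Ccnd3* (-0.07) in S8 and *Cdkn2a* in 16-6 (-0.03). With 1 library left out, the values in T2 against R1 ranged from -0.04 to 0.15 for *Mdm2* and from -0.12 to 0.02 for *Ccnd1*, and *Cdkn1b* was -0.07 without the second R1 library. All 60 values kept sign and call with pseudocount 0.1, with either other filter and without a trend. The replicate numbers did not pair the libraries (correlations of -0.097, 0.001 and 0.028), and a replicate block changed none of the 30 values it could give, with 2, 3 and 3 genes called in 16-6, in 32 and between them. Depth limits *Cdkn2a* and *Cdkn2b* most.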
